A study of Mus musculus with 20 samples.

Results

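The genes described here are the splicing and RNA-binding protein families measured along the conversion of 3T3-L1 cells, a mouse fibroblast line, into fat-storing adipocytes. A gene belonged to the set when a probe set on either array carried its symbol alone and the symbol began with Srsf, Sfrs, Hnrnp, Snrp, Sf3, U2af, Prpf, Ddx or Dhx. This gave 66 of the 6137 genes with a single symbol: 8 SR protein genes, 14 hnRNP genes, 8 snRNP genes, 5 SF3 genes, 2 U2AF genes, 7 PRPF genes, 16 DEAD-box genes and 6 DEAH-box genes. Each gene was read from its probe set with the highest mean over the series. Of the 66 genes, 54 were read from array A and 12 from array B, and 58 were bright enough to be tested.

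The samples were cultures of 3T3-L1 cells at 10 time points, each hybridised once to 2 Affymetrix array types (array A and array B), which makes 20 arrays. Preconfluent and confluent cells had received no inducer and form the stage before induction (n = 2). All later cells had been induced with MDI (commonly isobutylmethylxanthine, dexamethasone and insulin given together) and were collected at 6, 12 and 24 hours (the early stage, n = 3), on days 2 and 3 (the middle stage, n = 2) and on days 4, 7 and 28 (the late stage, n = 3). The cells are 1 established line without other cell types of fat tissue, and no time point had a replicate. Neighbouring time points stood in for replicates, so every p-value measures the spread between neighbouring time points, which may be technical or may be real change with time.

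Introns are removed from newly made transcripts by the spliceosome, which is built from small nuclear ribonucleoproteins (snRNPs), and the choice of splice sites is set by proteins bound to the transcript. SR proteins mostly promote the use of nearby exons, whereas hnRNPs coat the transcript and often repress exons. The SF3 and U2AF proteins recognise the end of the intron, PRPF proteins hold the assembled machine together, and DEAD-box and DEAH-box helicases drive its rearrangements as well as RNA export, ribosome production and RNA decay. In fat cells, alternative splicing of transcripts such as Pparg and Lpin1 is a known feature of differentiation. The arrays used here measure the level of a gene's messenger RNA and do not separate its splice forms.

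The values are linear intensities, and intensities at or below a floor of 136 on array A or 156 on array B were treated as not measurable and set to that floor. Marker genes followed the labels: all 10 adipocyte markers on the arrays rose from before induction to the late stage (limma, adjusted p under 0.05), while 4 of 10 fibroblast and preadipocyte markers fell. Of 9 macrophage markers 6 were bright enough to test, and Adgre1, Csf1r and C1qa were not; C1qc and Cd14 fell late versus before and C1qc also late versus early, and all 6 were below 0 late versus early. Their summed level was 5959 to 5998 before induction, 3760 to 6937 in the early stage and 3434 to 5389 in the late stage. Of 7 endothelial markers 4 were tested, Icam2 rose late versus before and late versus early, and Pecam1, Cdh5 and Tie1 were too dim; the summed level was 1700 to 1879 before induction, 1368 to 1690 in the early stage and 1621 to 1761 in the late stage. Of 10 skeletal muscle markers 7 were tested, with a median log2 difference late versus before of 0.70, Des rose in both comparisons, and Acta1, Tnnt3 and Tnnc1 were too dim; the summed level was 7190 to 9586 before induction, 5050 to 6985 in the early stage and 6177 to 10190 in the late stage. As a measure of RNA integrity, the 3-prime over 5-prime signal ratio of the Gapdh control on array A lay between 0.986 and 1.33 before induction, between 1.43 and 1.61 in the early stage, at 1.27 and 1.6 in the middle stage and between 0.992 and 1.14 in the late stage. On array B it lay between 0.722 and 0.815 at all time points. The same ratio of beta-actin on array A was 1.05 in preconfluent cells and 1.29 to 1.72 elsewhere. On array B it was 0.824 and 0.872 before induction, 0.801, 0.829 and 1.11 in the early stage, 1.08 and 1.06 in the middle stage and 1.02, 0.955 and 1.05 in the late stage. The stages thus differ in one or other of these ratios on both arrays (Gapdh on array A between early and late, beta-actin on array B between before and late), and their part in the differences between stages was not tested. Of the genes called below, Snrpa, Snrpn and Srsf6 were read from array B and the others from array A.

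The median of the 58 tested genes was lower in the late stage than before induction, though not in every family. The family median log2 difference was -0.74 for SR, -0.59 for hnRNP and -0.72 for snRNP genes. For U2AF, PRPF, SF3 and DEAD-box genes it was -0.89, -0.39, -0.22 and -0.15, and for DEAH-box genes 0.06. Of the 58 tested genes, 48 (82.8%) had a log2 difference below 0 from before induction to the late stage, against 53.4% of all 7582 tested probe sets, and the median difference was -0.53 against -0.05. Few of these differences passed the test for a single gene. Compared with the cells before induction, 1 gene rose in the late stage (Dhx32; 5.82% of all tested probe sets were called higher) and 2 fell (Dhx15 and Hnrnpm; 5.08% of all were called lower), as shares 1.72% and 3.45% of the 58. Leaving out 1 of the 2 samples before induction moved the median difference to -0.26 (preconfluent left out) or -0.61 (confluent left out). At an unadjusted p under 0.05 the late stage was higher for 2 genes and lower for 16, against 11.2% and 13.9% of all probe sets.

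All late samples lay below both samples before induction for 25 of the 58 genes (43.1%), against 21.4% of all tested probe sets, and above both for 2 genes (Dhx32 and Snrpn), against 15.8% of all. Without the preconfluent sample 28 genes (48.3%) lay lower, against 33.4% of all. Without the confluent sample the count of genes that lay lower was 40 (69%), also against 33.4% of all. The median difference was -0.26 without the preconfluent sample, with 42 of 58 genes below 0. In every alternative tried the median stayed below 0, between -0.61 and -0.26. In whole cultures, fewer cells of a type and less RNA per cell cannot be told apart.

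Between the early and the late stage more genes were called. A total of 3 genes rose (Dhx32, Dhx40 and Snrpn; 7.16% of all tested probe sets were called higher) and 7 fell (Dhx15, Hnrnpll, Hnrnpul2, Prpf19, Sf3b3, Snrpa and Snrpg; 6.55% of all were called lower), which is 12.1% of the 58 genes for the lower calls. The median log2 difference was -0.39 against -0.05 for all probe sets, and 41 of 58 genes (70.7%) were below 0, against 53.7%. By family the median was above 0 for SF3 (0.08), U2AF (0.13) and DEAH-box genes (0.90), and below 0 for the others. All late samples lay below all early samples for 21 genes (36.2%), against 16.1% of all, and above them for 4 genes (Dhx32, Dhx36, Dhx40 and Snrpn), against 14.5%. The number of called genes fell from 10 to 4 without the 6-hour sample, 1 without the 12-hour sample, 3 without the 24-hour sample, 5 without the day 7 sample and 6 without the day 28 sample. The shares of all probe sets called in these fits are not given here.

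Along the whole series 6 genes changed (Dhx15, Dhx32, Hnrnpl, Sf3b3, Snrpa and Srsf6; limma's F test of a spline), which is 10.3% of the 58 genes against 16.8% of all tested probe sets. Without the preconfluent sample 14 genes were called, and the share of all probe sets called in that fit is not given here. From before induction to the early stage no gene was called in either direction with limma, against 0.198% of all probe sets called higher and 0.158% called lower, and at an unadjusted p under 0.05 the early stage was higher for 1 gene and lower for 2, against 4.01% and 5.22% of all probe sets. The median log2 difference of the 58 genes in this comparison was -0.10, and it was 0.09 without the preconfluent sample.

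The highest values fell most often in the preconfluent, 24-hour and day 2 samples, and the lowest values in the late stage. The preconfluent sample held the highest value of 17 of the 58 genes (29.3%, against 13.5% of all tested probe sets), the 24-hour sample that of 10 (17.2% against 7.98%) and the day 2 sample that of 8 (13.8% against 5.94%). The late stage held the highest value of only 10 genes (17.2% against 35.7%) and the lowest value of 40 (69% against 41.8%). Over the 10 time points the median of the genes, on a log2 scale relative to each gene's own mean, went from 0.25 in preconfluent cells to 0.02 at confluence and -0.04 at 6 hours, then up to 0.19 at 12 hours and 0.30 at 24 hours, and down to 0.13 on day 2, -0.01 on day 3, -0.36 on day 4, -0.18 on day 7 and -0.26 on day 28. The profile thus had a first high point in growing cells and another at 24 hours, with a low point on day 4.

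**Figure D1:**
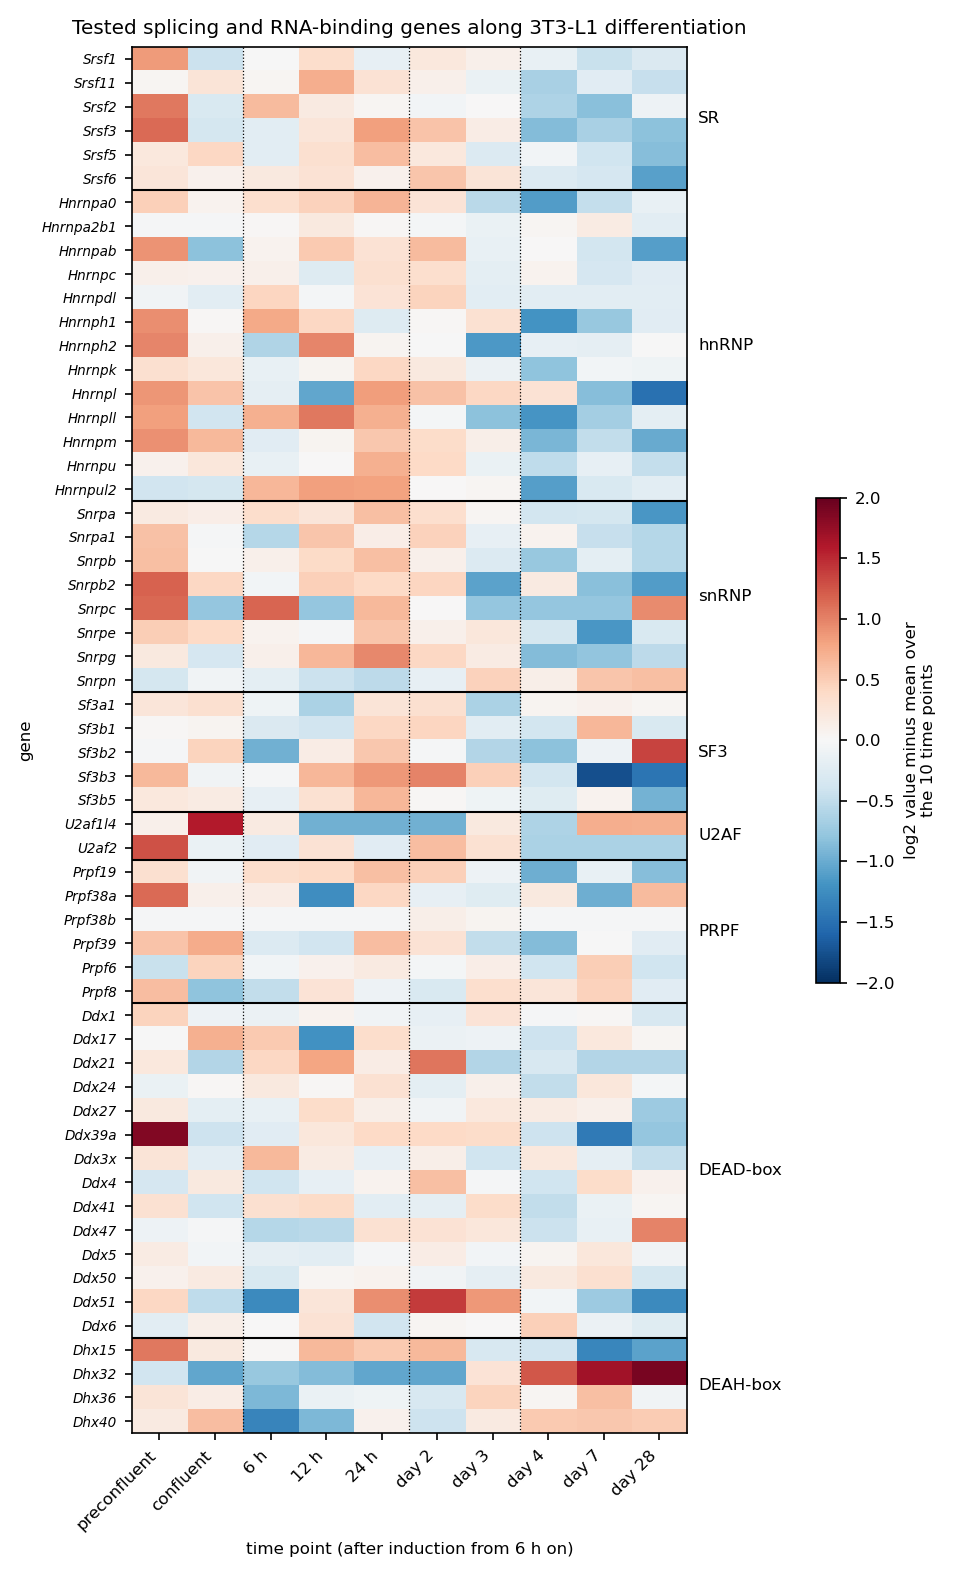
Each row is 1 of the 58 tested genes and each column 1 time point, with the colour giving the log2 value minus the gene's mean over the 10 time points; dotted lines part the 4 stages and the families are named at the right. Most rows of the SR, hnRNP and snRNP families run from red in preconfluent or 24-hour cells to blue on days 4, 7 and 28, whereas Dhx32 runs the other way.

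**Figure D2:**
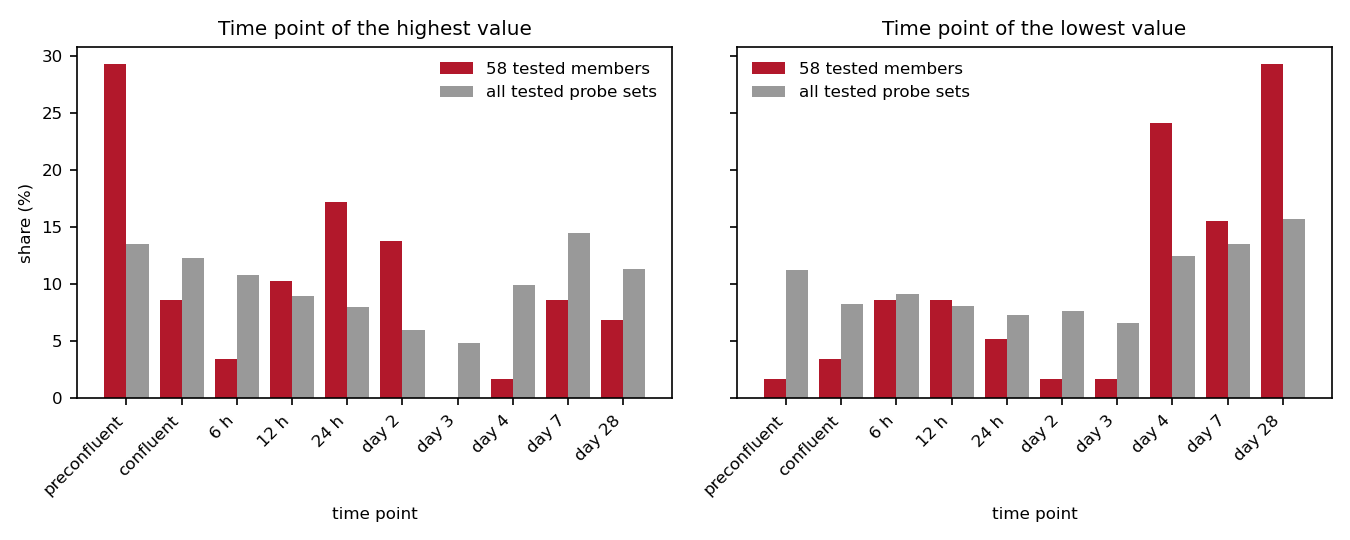
Bars give the share of the 58 tested genes and of all tested probe sets whose highest (left) or lowest (right) value fell at each time point. The genes peaked most often in preconfluent cells (29.3%) and had their lowest value most often on day 28 (29.3%) and day 4 (24.1%).

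Genes for DNA replication and cell division moved over the same time points. Of 20 such genes on the arrays 19 were tested, all 19 were below 0 in the late stage against both earlier stages, and 4 were called lower late versus before (against 5.08% of all tested probe sets) and 7 late versus early (against 6.55%). Their summed level was 12019 to 33921 before induction, 12489 to 34284 in the early stage, 12785 to 18071 in the middle stage and 5529 to 7334 in the late stage. The part of cell division in the lower levels of splicing genes was not tested.

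The SR protein genes were lower in the late stage, all 6 that were tested, but none passed the test against the stage before induction or the early stage. Their median log2 difference was -0.74 late versus before and -0.77 late versus early. Without the preconfluent sample the median late versus before was -0.54, with 5 of 6 genes below 0. Srsf2, which binds exonic enhancers and had the family's highest mean, read 3230 and 1260 before induction, 2400, 1760 and 1590 in the early stage, 1500 and 1560 in the middle stage and 1010, 875 and 1450 in the late stage. The preconfluent value was the highest and the late samples lay below all early ones, a log2 difference of -0.80 ± 0.37 (SE) (adjusted p = 0.186). Srsf3, the smallest SR protein and a regulator of its own splicing, read 628 and 223 before induction, 248, 338 and 502 in the early stage, 425 and 316 in the middle stage and 146, 182 and 161 in the late stage. All late samples lay below all earlier ones, and the late level was at least 2.25-fold lower than before induction, with a log2 difference of -1.17 ± 0.43 (SE) that did not pass the test (adjusted p = 0.133). Srsf1, the founding member of the family, read 1080 and 445 before induction, 597, 765 and 534 in the early stage, 694 and 644 in the middle stage and 541, 442 and 492 in the late stage, so that the preconfluent value stood above all others, which lay between 442 and 765.

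Srsf6, a regulator of exon choice, was the SR gene that changed along the series (adjusted p = 0.0128). It read 957 and 858 before induction, 920, 981 and 858 in the early stage, 1180 and 960 in the middle stage and 671, 639 and 380 in the late stage. The values lay between 858 and 1180 up to day 3 and were lowest on day 28, and the call was lost without the day 28 sample (adjusted p = 0.186). A further Srsf6 probe set on array A also changed along the series (adjusted p = 0.041). Its lowest value, 81 on day 28, lay below the floor. Its values on days 4 and 7 (447 and 434) lay within the range of its earlier ones, 413 to 615. Srsf5 and Srsf11 were likewise highest at 24 and 12 hours and lower late, with log2 differences late versus early of -0.69 ± 0.32 (SE) and -0.79 ± 0.27 (SE) that did not pass the test (adjusted p = 0.186 and 0.0813).

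The hnRNP genes were lower in the late than in the early stage in all 13 tested, with a median log2 difference of -0.57, and 2 were called. Against the stage before induction 12 of 13 were lower, with a median of -0.59 and 1 call. That median was -0.30 without the preconfluent sample and -1.06 without the confluent sample. Hnrnpm, which binds GU-rich stretches and shifts exon choice, read 4090 and 3370 before induction, 1840, 2240 and 3140 in the early stage, 2790 and 2340 in the middle stage and 1150, 1530 and 1080 in the late stage. Both samples before induction exceeded all 8 later ones. It fell 3-fold from before induction to the late stage (log2 difference -1.58 ± 0.32 (SE), limma, adjusted p = 0.0107), a call that was lost without the preconfluent sample (adjusted p = 0.0856).

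Hnrnpll and Hnrnpul2 had another course, with their highest values at 12 hours. Hnrnpll, known for its control of Ptprc splicing in lymphocytes, read 903 and 392 before induction, 840, 1060 and 835 in the early stage, 496 and 291 in the middle stage and 227, 321 and 447 in the late stage. It fell 2.84-fold from the early to the late stage (log2 difference -1.50 ± 0.38 (SE), adjusted p = 0.0252), with no overlap between the stages. Without the 6-hour, 12-hour, 24-hour, day 4 or day 7 sample the call was lost (adjusted p = 0.0579, 0.0928, 0.0554, 0.078 and 0.0652, in this order). Hnrnpul2, a relative of the nuclear scaffold protein Hnrnpu that takes part in the DNA damage response, read 349 and 354 before induction, 716, 800 and 794 in the early stage, 456 and 466 in the middle stage and 211, 366 and 392 in the late stage. Its early samples were above all others, and it fell 2.47-fold from the early to the late stage (log2 difference -1.30 ± 0.29 (SE), adjusted p = 0.014). Leaving out the 12-hour sample ended the call (adjusted p = 0.0553). The call was also lost when its 2 tested probe sets were averaged (adjusted p = 0.11); the other probe set had a log2 difference of -0.24.

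Hnrnpl, which binds CA-rich stretches, changed along the series (adjusted p = 0.0308) and read 1000 and 805 before induction, 483, 266 and 971 in the early stage, 814 and 723 in the middle stage and 666, 302 and 194 in the late stage. The preconfluent and 24-hour values were the highest, and the 12-hour value and those of days 7 and 28 the lowest. The call was lost without the preconfluent, confluent, 6-hour, day 2, day 7 or day 28 sample (adjusted p = 0.0996, 0.0682, 0.0646, 0.0642, 0.0518 and 0.119, in this order). It was also lost with a spline of 2 or 4 degrees of freedom (adjusted p = 0.236 and 0.0525), at 2 times the floor (0.159) and without the filter on dim probe sets (0.149). Its probe set carries the maker's mark for sequence common to several related genes. Hnrnpa0, a binder of AU-rich RNA with the highest mean of the family, read 4210 and 3170 before induction, 3840, 4170 and 4830 in the early stage, 3670 and 2080 in the middle stage and 1390, 2180 and 2720 in the late stage. All late samples lay below all early ones, a log2 difference of -1.08 ± 0.33 (SE) that did not pass the test (adjusted p = 0.0542). Hnrnpa2b1, which sorts messenger RNA for transport, stayed between 871 and 1150 over all 10 time points, with a log2 difference late versus before of 0.03 ± 0.27 (SE), the highest of the family.

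The remaining hnRNP genes lay between these. Hnrnph1 read 1320 and 703 before induction, 1180, 924 and 580 in the early stage, 703 and 863 in the middle stage and 303, 412 and 595 in the late stage, with all late samples below both samples before induction and a log2 difference of -1.20 ± 0.40 (SE) (adjusted p = 0.1). Hnrnpu, Hnrnpk and Hnrnpab had their highest values at 24 hours, 24 hours and in preconfluent cells, and log2 differences late versus before of -0.53, -0.59 and -0.52. Hnrnpc stayed within a 1.59-fold range, but its 4 tested probe sets differed among themselves, from -0.92 to -0.25 late versus before. Hnrnph1 and Hnrnph2 are close copies of each other, and Hnrnpc has processed copies in the genome, so their levels may be shared with related transcripts.

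The snRNP genes were lower late than early in 7 of 8, with a median log2 difference of -0.84, and 2 were called lower and 1 higher. Late versus before the median was -0.72, or -0.44 without the preconfluent sample, and no snRNP gene was called. Snrpg, a subunit of the Sm ring that all main spliceosomal snRNPs share, had the highest mean and read 5420 and 3750 before induction, 5090, 7500 and 9160 in the early stage, 6290 and 5300 in the middle stage and 2580, 2740 and 3280 in the late stage. It was highest at 24 hours, and all late samples lay below all others. It fell 2.47-fold from the early to the late stage (log2 difference -1.30 ± 0.30 (SE), adjusted p = 0.016). Without the 12-hour or 24-hour sample the call was lost (adjusted p = 0.063 and 0.0529, in this order).

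Snrpa, the protein that binds a stem-loop of U1 RNA, read 1450 and 1400 before induction, 1640, 1520 and 1940 in the early stage, 1620 and 1310 in the middle stage and 995, 1010 and 572 in the late stage. It fell 2.03-fold from the early to the late stage (log2 difference -1.02 ± 0.24 (SE), adjusted p = 0.0246) and changed along the series (adjusted p = 0.00923). The late samples were the lowest of the series and day 28 the lowest of these. Leaving out the 6-hour, 12-hour or 24-hour sample ended the call (adjusted p = 0.0624, 0.0617 and 0.0751, in this order). The change along the series was lost without the day 28 sample (adjusted p = 0.108). Its probe set is marked as shared by a gene family.

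Apart from Snrpg, Snrpa and Snrpn, no tested snRNP gene was called. Snrpb, the main Sm ring subunit related to Snrpn, read 7160 and 4650 before induction, 5020, 6130 and 7150 in the early stage, 5050 and 3890 in the middle stage and 2780, 4110 and 3160 in the late stage, and its late samples lay below all early ones (log2 difference -0.87 ± 0.29 (SE), adjusted p = 0.0758). Snrpe, another Sm ring subunit, read 5490 and 5100 before induction, 4080, 3820 and 5690 in the early stage, 4180 and 4550 in the middle stage and 3040, 1730 and 3130 in the late stage, a log2 difference late versus before of -1.06 ± 0.29 (SE) (adjusted p = 0.0511). Snrpb2, a protein of the U2 snRNP, had the lowest log2 difference late versus before of the family, -1.39 ± 0.51 (SE) (adjusted p = 0.132), with values of 916 and 538 before induction, 389, 560 and 534 in the early stage, 542 and 192 in the middle stage and 459, 226 and 186 in the late stage. Snrpc, a protein of the U1 snRNP, swung between 524 and values below 0, with 5 of 10 samples at or below the floor, and its course cannot be read.

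Snrpn went the other way. It encodes the Sm protein that replaces the Snrpb product in brain and is expressed from the paternal allele only. Its intensity was 389 and 474 before induction, 433, 367 and 345 in the early stage, 444 and 682 in the middle stage and 540, 725 and 756 in the late stage. The 3 late samples exceeded all early samples and both samples before induction, and Snrpn rose 1.75-fold from the early to the late stage (log2 difference 0.81 ± 0.22 (SE), adjusted p = 0.0421). Late versus before the log2 difference was 0.63 ± 0.24 (SE) and did not pass the test (adjusted p = 0.144). The call was lost without the preconfluent, confluent, 6-hour, 12-hour, 24-hour, day 7 or day 28 sample (adjusted p = 0.0511, 0.0511, 0.0638, 0.124, 0.115, 0.116 and 0.113, in this order). Snrpn and Snrpb are close relatives in sequence, so their probe sets could share signal; their log2 differences late versus early had opposite signs.

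**Figure D3:**
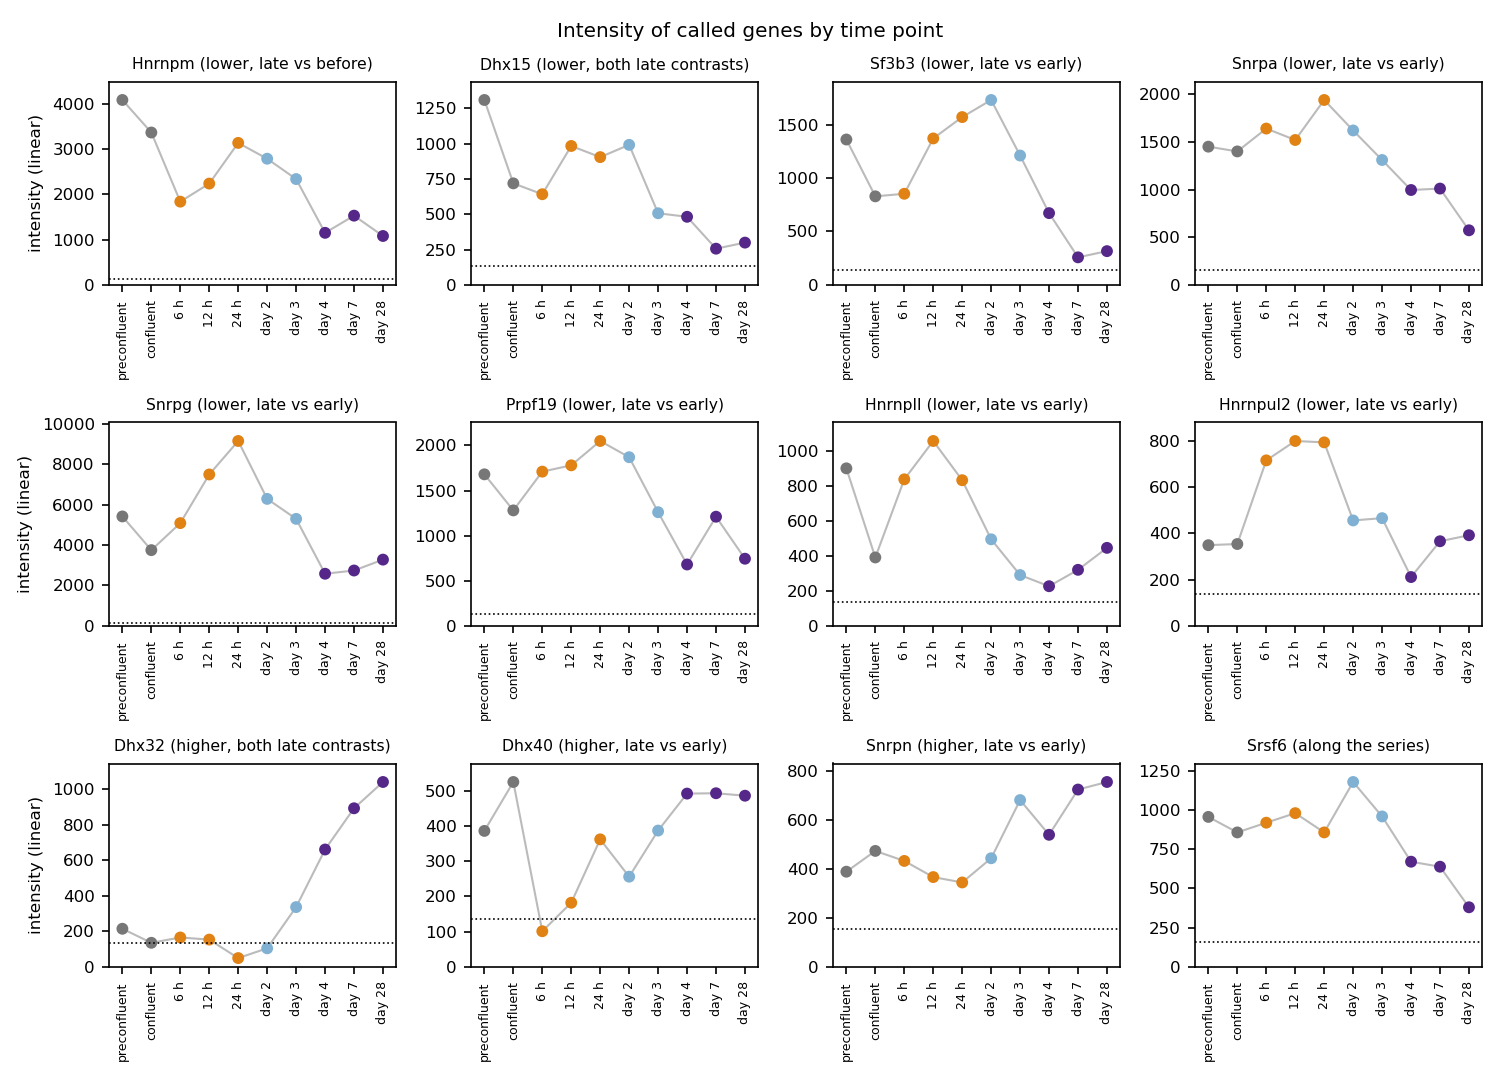
Linear intensity of 12 called genes at the 10 time points, coloured by stage (grey before induction, orange early, light blue middle, purple late), with the floor of the array type as a dotted line. Of the panels, 8 show genes lower in the late stage, 3 show genes higher in the late stage and Srsf6 changed along the series.

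The SF3 genes, whose proteins hold the branch point of the intron within the U2 snRNP, gave 1 called gene. All 5 were below 0 late versus before, from -1.49 to -0.04, and Sf3b3 was the only one of them called in any comparison. Late versus early the median log2 difference of the family was 0.08, with 2 of the 5 below 0. Sf3b3 read 1360 and 828 before induction, 852, 1370 and 1570 in the early stage, 1730 and 1210 in the middle stage and 671, 257 and 315 in the late stage. It was highest on day 2 and lowest on days 7 and 28, and it fell 3.23-fold from the early to the late stage (log2 difference -1.69 ± 0.41 (SE), adjusted p = 0.0203) and changed along the series (adjusted p = 0.0178). Without the 12-hour, 24-hour, day 7 or day 28 sample the call was lost (adjusted p = 0.0732, 0.0675, 0.0719 and 0.0624, in this order). Sf3b1, the largest subunit and its partner in the same complex, read 1020 and 1040 before induction, 819, 768 and 1340 in the early stage, 1350 and 868 in the middle stage and 776, 1590 and 813 in the late stage, with log2 differences of -0.04 ± 0.40 (SE) late versus before and 0.08 ± 0.36 (SE) late versus early. Sf3b5, a small subunit with the highest mean of the family, read 1650 and 1590 before induction, 1270, 1760 and 2240 in the early stage, 1450 and 1340 in the middle stage and 1200, 1490 and 737 in the late stage, and its late decline did not pass the test (log2 difference -0.64 ± 0.32 (SE) late versus early, adjusted p = 0.226). The difference between these subunits was not tested.

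The U2AF genes and most PRPF genes gave no call. U2af2, which binds the pyrimidine-rich stretch before the end of an intron, read 585 and 220 before induction, 207, 295 and 207 in the early stage, 371 and 299 in the middle stage and 119, 143 and 111 in the late stage. The preconfluent sample was the highest and all 3 late samples were below the floor, so that the late level was at least 2.3-fold lower than before induction (log2 difference -1.20 ± 0.37 (SE), adjusted p = 0.0758). U2af1l4, a relative of the protein that reads the AG at the intron's end, had a log2 difference late versus before of -0.57 ± 0.59 (SE) and read 283 and 787 before induction, 299, 125 and 88 in the early stage, 41 and 301 in the middle stage and 171, 435 and 429 in the late stage. Its values at 12 hours, 24 hours and day 2 lay below the floor, and the confluent sample was its highest.

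Prpf19, the ubiquitin ligase at the core of the complex that activates the spliceosome, was the PRPF gene that was called. It read 1680 and 1280 before induction, 1710, 1780 and 2050 in the early stage, 1870 and 1260 in the middle stage and 680, 1210 and 744 in the late stage, with a high point at 24 hours. It fell 2.17-fold from the early to the late stage (log2 difference -1.12 ± 0.30 (SE), adjusted p = 0.0339), and all late samples lay below all early ones. Leaving out the 6-hour, 12-hour, 24-hour, day 4 or day 28 sample ended the call (adjusted p = 0.0691, 0.0894, 0.0924, 0.0882 and 0.0903, in this order). Prpf8, the large protein at the catalytic centre, had the highest log2 difference late versus before of the family, 0.25 ± 0.44 (SE), and Prpf39, an accessory protein of the U1 snRNP, the lowest, -1.02 ± 0.40 (SE) (adjusted p = 0.777 and 0.139). Prpf6, which bridges snRNPs, stayed within a 1.9-fold range, and Prpf38b lay at or below the floor in 8 of 10 samples.

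The promoters of the genes were searched for known motifs on both strands. RefSeq promoters (GRCm38.p6, 250 bases before to 50 after the start) were found for 59 of the 66 genes, 81 promoters in all. The 81 include promoters of genes too dim to test, whereas the 4265 promoters below are of tested genes only. Some windows of the same gene overlap, as for Srsf4 and Sf3b2, and each was counted. The ETS core CCGGAAG on either strand was in 26 of the 81 (32.1%), against 16.6% of the 4265 promoters of tested genes and 8.86% of all 32851 promoters. The E-box CACGTG, which reads the same on both strands, was in 11.1%, 10.4% and 7.15% of these promoters, the NRF1 core GCATGCGC in 6.17%, 5.09% and 2.71%, the E2F forms TTTGGCGC or TTTCGCGC in 3.7%, 1.88% and 0.813%, and CCAAT in 43.2%, 37.2% and 37.4%. No motif contains another, and the median GC content was 60%, 60.7% and 52.7%. By family the ETS core was in a promoter of 3 of 8 SR genes, 1 of 12 hnRNP genes, 4 of 7 snRNP genes, 3 of 4 SF3 genes, 0 of 1 U2AF gene, 3 of 7 PRPF genes, 6 of 14 DEAD-box genes and 3 of 6 DEAH-box genes. A match describes the letters and not a bound factor. The 250 bases before the start of Snrpg, Sf3b3 and Prpf19 are shown because these genes fell from the early to the late stage and carry the core, a choice made after their values were seen. Of the 6 genes with a promoter that were called lower in the late stage, the other 3 (Dhx15, Hnrnpm and Snrpa) do not hold these letters in the window. The capitals mark the ETS core or, in Sf3b3, its reverse complement CTTCCGG.
Snrpg (chr6:86371290-86371539, plus strand): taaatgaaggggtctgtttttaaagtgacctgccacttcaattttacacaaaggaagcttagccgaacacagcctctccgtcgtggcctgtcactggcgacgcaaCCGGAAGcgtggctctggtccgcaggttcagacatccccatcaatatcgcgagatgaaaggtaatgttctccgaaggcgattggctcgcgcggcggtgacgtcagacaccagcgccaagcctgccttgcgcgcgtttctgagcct
Sf3b3 (chr8:110846804-110847053, minus strand): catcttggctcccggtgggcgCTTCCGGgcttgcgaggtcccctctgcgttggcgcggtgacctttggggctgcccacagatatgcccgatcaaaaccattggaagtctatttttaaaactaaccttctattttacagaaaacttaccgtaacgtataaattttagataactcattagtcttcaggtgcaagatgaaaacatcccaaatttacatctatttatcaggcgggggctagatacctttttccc
Prpf19 (chr19:10894981-10895230, plus strand): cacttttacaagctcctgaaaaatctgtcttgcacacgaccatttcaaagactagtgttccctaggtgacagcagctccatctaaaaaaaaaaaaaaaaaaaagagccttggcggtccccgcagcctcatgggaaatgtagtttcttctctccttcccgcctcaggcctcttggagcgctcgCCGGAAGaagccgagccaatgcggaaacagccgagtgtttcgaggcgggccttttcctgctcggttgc

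The DEAH-box genes held the largest rise, of Dhx32, and a fall, of Dhx15, whose calls were less stable. Dhx32, a DEAH-family protein, read 214 and 135 before induction, 165, 153 and 49 in the early stage, 104 and 336 in the middle stage and 660, 892 and 1040 in the late stage. The gene lay between 49 and 214, around the floor, until day 2, and each value from day 3 to day 28 was higher than the one before, unlike most other genes here. It rose at least 4.94-fold from before induction to the late stage (log2 difference 2.32 ± 0.41 (SE), adjusted p = 0.00562) and at least 5.63-fold from the early to the late stage (log2 difference 2.49 ± 0.36 (SE), adjusted p = 0.00191), and it changed along the series (adjusted p = 0.00166). Both folds are lower bounds because earlier samples lay at or below the floor. The calls held in every alternative and without any 1 sample, with adjusted p of at most 0.0475.

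Dhx15, the helicase that takes apart the spliceosome after the intron has been released, read 1310 and 719 before induction, 642, 984 and 905 in the early stage, 992 and 507 in the middle stage and 482, 256 and 299 in the late stage. The 3 late samples were lower than all others. It fell 2.92-fold from before induction (log2 difference -1.54 ± 0.42 (SE), adjusted p = 0.04) and 2.49-fold from the early stage (log2 difference -1.32 ± 0.38 (SE), adjusted p = 0.0411), and changed along the series (adjusted p = 0.0338). The call against the stage before induction was lost without the preconfluent, 12-hour, 24-hour, day 7 or day 28 sample (adjusted p = 0.28, 0.0575, 0.0553, 0.11 and 0.0885, in this order). Without the 6-hour, 12-hour, 24-hour, day 7 or day 28 sample the call against the early stage was lost (adjusted p = 0.0545, 0.136, 0.105, 0.129 and 0.102, in this order). Leaving out the 12-hour, 24-hour, day 4 or day 7 sample ended the call along the series (adjusted p = 0.0687, 0.0598, 0.0574 and 0.0857, in this order).

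Dhx40 had its lowest values at 6 and 12 hours. It read 386 and 525 before induction, 101, 182 and 362 in the early stage, 256 and 387 in the middle stage and 492, 493 and 486 in the late stage. Early versus before, the log2 difference of -1.12 ± 0.41 (SE) did not pass the test (adjusted p = 0.384), and all late samples exceeded all early ones. It rose at least 2.16-fold from the early to the late stage (log2 difference 1.24 ± 0.36 (SE), adjusted p = 0.0451), while late versus before the log2 difference was 0.12 ± 0.41 (SE) (adjusted p = 0.893). The call was lost without the preconfluent, confluent, 6-hour, 12-hour, day 2, day 3, day 4, day 7 or day 28 sample (adjusted p = 0.0528, 0.0531, 0.146, 0.141, 0.0562, 0.0565, 0.0896, 0.103 and 0.0919, in this order). Dhx36, which unwinds G-quadruplexes, was also lowest at 6 hours, where it lay below the floor, but not low at 12 hours. It read 303 and 283 before induction and 87, 232 and 239 in the early stage. Its later values were 204 and 346 in the middle stage and 262, 387 and 243 in the late stage. All late samples exceeded all early ones, though narrowly (243 on day 28 against 239 at 24 hours). The log2 difference late versus early of 0.57 ± 0.33 (SE) did not pass the test (adjusted p = 0.295).

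**Figure D4:**
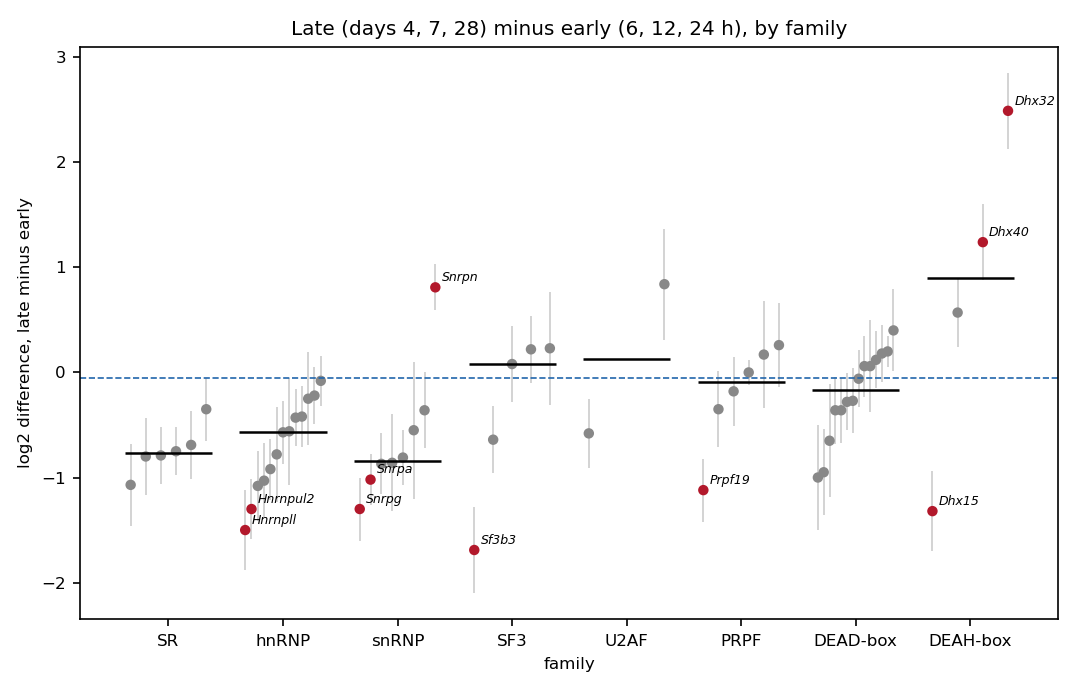
Points give the log2 difference late minus early of each tested gene with its SE (limma, 3 late and 3 early samples), red where the adjusted p was under 0.05; black bars are family medians and the dashed line is the median of all tested probe sets (-0.05). All SR and hnRNP genes lie below 0, and Dhx32 lies highest at 2.49.

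None of the 14 tested DEAD-box genes was called in any comparison with limma, and many varied little. Late versus before 10 were below 0, from -1.59 to 0.20. Ddx27, a ribosome production factor with the family's highest mean, read 8310 and 6350 before induction, 6560, 9380 and 7860 in the early stage, 6890 and 8390 in the middle stage and 8130, 7750 and 4380 in the late stage, a log2 difference late versus before of -0.16 ± 0.35 (SE). Ddx5 and Ddx17, close relatives that act in splicing and transcription, differed by 0.01 ± 0.17 (SE) and -0.41 ± 0.49 (SE), and Ddx5 stayed within a 1.35-fold range over the series. Ddx6, a component of cytoplasmic RNA granules, stayed within 1.81-fold, Ddx1 within 1.7-fold, Ddx24 within 1.74-fold, Ddx41 within 1.85-fold and Ddx50 within 1.59-fold. A further tested probe set of Ddx6 ranged 2.22-fold and 1 of Ddx50 ranged 2.24-fold. That of Ddx6 had a log2 difference late versus early of -0.74 ± 0.26 (SE) that did not pass the test (limma, adjusted p = 0.0915).

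A pair of DEAD-box genes had wide ranges. Ddx39a, a messenger RNA export helicase, had the widest range of all 58 genes, 9.71-fold with the floor in place, and read 1320 and 273 before induction, 311, 427 and 479 in the early stage, 479 and 470 in the middle stage and 272, -4 and 214 in the late stage. Preconfluent cells stood far above all later samples, and the late level was at least 3.01-fold lower than before induction (log2 difference -1.59 ± 0.56 (SE), adjusted p = 0.0987). Ddx51, a nucleolar helicase of ribosome production, read 442 and 231 before induction, 110, 391 and 628 in the early stage, 872 and 600 in the middle stage and 319, 199 and 93 in the late stage, with a minimum at 6 hours, a maximum on day 2 and a further minimum on day 28 (along the series, adjusted p = 0.0646). Ddx47, another ribosome production factor, had the highest log2 difference late versus before of the family, 0.20 ± 0.43 (SE), through a single high value of 1490 on day 28. Ddx21, a nucleolar helicase, lay at or below the floor in 4 of 10 samples, and Ddx4, the germ cell helicase, stayed between 122 and 313, close to the floor of 156.

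Single steps between neighbouring time points showed where the values moved. With 1 sample at each end these steps have no test, and genes past 2-fold are counted against the share of all tested probe sets past it. At confluence, when growth stops, 10 genes were past 2-fold lower (17.2% against 7.32% of all): Ddx39a, Hnrnpab, Hnrnpll, Prpf38a, Prpf8, Snrpc, Srsf1, Srsf2, Srsf3 and U2af2. Only U2af1l4 was past 2-fold higher (1.72% against 6.19%). This was the step with the most genes in 1 direction, and it rests on the same preconfluent sample that held the highest value of 17 genes. On array A the 3-prime over 5-prime ratio of this sample was 0.986 for Gapdh and 1.05 for beta-actin, against 1.33 and 1.48 at confluence. On array B these ratios were 0.815 and 0.824, against 0.788 and 0.872. The part of RNA integrity in this step was not tested. At 6 hours Ddx21, Hnrnpll, Hnrnpul2 and Snrpc were higher (6.9% against 6.81%) and Dhx36, Dhx40, Prpf39, Sf3b2 and U2af1l4 lower (8.62% against 6.53%), which is close to the share of all probe sets.

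At 12 hours Ddx51, Hnrnph2, Sf3b2 and Snrpa1 were higher (6.9% against 4.84% of all) and Ddx17, Prpf38a, Snrpc and U2af1l4 lower (6.9% against 4.64%). At 24 hours Ddx17, Hnrnpl, Prpf38a and Snrpc were higher (6.9% against 4.44%) and none was lower (against 4.84%). On day 2 no gene was past 2-fold in either direction, against 4.15% of all higher and 4.92% lower. Day 3 had 2 genes higher, Dhx32 and U2af1l4 (against 4.5%), and 3 lower, Ddx21, Hnrnph2 and Snrpb2 (against 4.18%). On day 4 Hnrnph1, Hnrnpm, Hnrnpul2, Snrpg and Srsf3 were lower (8.62% against 5.59%) and Snrpb2 was higher (against 3.93%). Of these, Hnrnpm, Hnrnpul2 and Snrpg were also called lower in the late stage as a whole. On day 7 Ddx39a, Hnrnpl, Prpf38a, Sf3b3 and Snrpb2 were lower (8.62% against 6.11%), and Sf3b1 and U2af1l4 were higher (3.45% against 8.26%). On day 28 Ddx47, Prpf38a, Sf3b2 and Snrpc were higher (6.9% against 6.34%) and Sf3b5 was lower (1.72% against 6.91%). Among these steps, the genes' share was more than 2 times that of all probe sets only for lower values at confluence. Genes named only for a step were chosen after their values were seen.

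A group of 8 genes was too dim to test: Ddx19b, Ddx46, Dhx16, Dhx30, Hnrnpd, Prpf4b, Srsf4 and Srsf10. Hnrnpd, a binder of AU-rich messenger RNA, read 212 and 126 before induction, 142, 151 and 95 in the early stage, 102 and 82 in the middle stage and 81, 111 and 111 in the late stage. Its highest value was that of preconfluent cells, the only reading above the limit for testing. Srsf10, known from other work to act on the Lpin1 transcript in adipocyte formation, read between -154 and 143, and Srsf4 was below 0 in all 10 samples. No statement on the course of these genes can be made from these probe sets.

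Where a gene had several tested probe sets, they mostly pointed the same way. Of 14 genes with several probe sets, 12 had several tested, and in 8 of these the log2 differences late versus early had the same sign. Srsf1 differed from -0.69 to -0.35, Srsf6 from -0.91 to -0.75, Snrpb from -0.91 to -0.87 and Hnrnpab from -1.21 to -0.63. The signs differed for Ddx3x, Ddx6, Hnrnpc and Sf3b1. Of the 58 tested genes, 8 were read from probe sets marked as shared by a gene family.

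As a group, genes of RNA processing outside these families also had medians below 0 in the late stage, though not in every list. Of 84 such genes on the arrays 67 were tested, with a median log2 difference of -0.50 between the late stage and the cells before induction, 0.05 for the early stage against those cells and -0.45 between late and early. Late versus before 1 fell and none rose (5.08% and 5.82% of all tested probe sets were called in these directions), late versus early 8 fell (Eftud2, Ewsr1, Matr3, Ran, Rbm14, Rbm17, Smn1 and Xpo1) and 2 rose (Papola and Prcc), against 6.55% and 7.16% of all, and 9 of the 67 changed along the series, against 16.8% of all. Papola, Ran, Rbm14, Rbm17 and Smn1 are named because of these calls and not by the rule for named genes. Among 23 core spliceosome proteins, Eftud2, the GTPase of the U5 snRNP, changed along the series and read 1170 and 1650 before induction, 2190, 1960 and 2370 in the early stage, 2390 and 1840 in the middle stage and 1500, 766 and 785 in the late stage. It was highest on day 2 and fell 2.24-fold from the early to the late stage (adjusted p = 0.029). Lsm2, Usp39 and Prcc also changed along the series (adjusted p = 0.03, 0.0412 and 0.0494). Lsm2 and Usp39 had log2 differences late versus before of -1.21 ± 0.50 (SE) and -1.23 ± 0.50 (SE), and Prcc rose from the early to the late stage (log2 difference 0.73 ± 0.12 (SE), adjusted p = 0.00708).

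Among 24 splicing regulators, Ewsr1, an RNA-binding protein of the FET family, read 1560 and 1160 before induction, 981, 1130 and 1400 in the early stage, 1230 and 1130 in the middle stage and 750, 438 and 632 in the late stage. It fell 2.27-fold from before induction to the late stage (adjusted p = 0.0256), the only gene of these lists that was called in that comparison. Matr3, a nuclear matrix protein, Tardbp, which represses cryptic exons, and Rbm39, a U2AF-related factor, changed along the series (adjusted p = 0.0335, 0.0241 and 0.0366). Matr3 and Tardbp were lower late than early (log2 differences -1.49 ± 0.33 (SE) and -1.37 ± 0.44 (SE)) and Rbm39 was higher (0.69 ± 0.24 (SE)), and of the 3 only Matr3 passed that test. In the list of nuclear RNA export all 7 genes were below 0 late versus early. Xpo1, the main export receptor, read 288 and 362 before induction, 647, 720 and 681 in the early stage, 469 and 156 in the middle stage and 177, 177 and 57 in the late stage, and it fell at least 4.18-fold from the early to the late stage (adjusted p = 0.00505). Ranbp1, a regulator of the Ran GTPase, changed along the series (adjusted p = 0.0438). Of 11 tested genes of cleavage and polyadenylation 1 rose late versus early and none fell, and neither of the 2 tested kinases of SR proteins was called. The median log2 difference of the cleavage and polyadenylation genes was -0.06 late versus before and 0.01 late versus early. For the kinases these medians were 0.13 and -0.18.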

How the data were processed

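The deposited values are linear intensities per probe set, given to 3 significant digits, and the authors' software and its settings are not given in the sources used here. Per the labels' protocols, total RNA was extracted with Trizol and biotin-labelled cRNA was prepared by the array maker's standard method. Values can lie below 0, and the authors had scaled all 20 arrays alike (trimmed means of 500.9 to 501.1), so no further scaling was applied. Symbols came from the platform annotation: of 13069 probe sets without the 110 controls, 7542 had 1 symbol, 224 several and 5303 none.

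Values under the floor (136 on array A and 156 on array B, the negative of each array type's 10th percentile) were set to it and log2 was taken. The 7582 probe sets tested exceeded a limit (182 for array A, 156 for array B) at 2 or more of the 10 time points. Stage means were fitted per array type with limma 3.58.1 in R 4.3.3 (6 residual degrees of freedom), and change along the series by an F test on a natural spline (3 degrees of freedom). Benjamini-Hochberg adjustment ran over all 7582 probe sets, and every adjusted p given is limma's. A call is an adjusted p under 0.05, and SE is the standard error of a log2 difference. Folds are ratios of geometric stage means. Where the dimmer stage had a sample at the floor, the fold is written as "at least", and whichever was lower was taken, the geometric ratio or the one from arithmetic means of the floored values. The fitting code was tested on simulated data. Precision is limited by the number of arrays.

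The genes and lists were chosen with earlier results of these data known. Named were all called genes, per family the gene with the highest mean and those with the highest and lowest log2 difference late versus before, and the 5 with the widest range. In the other RNA processing lists, genes called late versus before or along the series were named, up to 4 per list and direction. Protein sequences were not used here. Alternatives changed the floor, the filter, the normalization, the probe set rule, the moderation and the spline, and left out each time point.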

Additional observations from a re-analysis of the deposited data

How the results depend on the processing

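The counts of called genes were small and several moved with the settings. Shares of all probe sets called under the other settings are not given here, so these counts have no background beside them. Late versus before, 3 genes were called, and intensity trend with robust moderation gave 5 (with Sf3b3 and Snrpe added). Without the preconfluent or the confluent sample the stage before induction has 1 sample left. The median difference was then -0.26 or -0.61, in this order. Early versus before, the count was 0 and became 1 at 2 times the floor (Hnrnpul2). Late versus early, 10 genes were called, against 5 at 2 times the floor, 3 without the filter on dim probe sets, and 1 to 9 when 1 time point was left out. Along the series, 6 were called, against 3 at 2 times the floor, 3 without the filter, 11 with a spline of 4 degrees of freedom, and 4 to 14 when 1 time point was left out. The unfiltered fit also tests more probe sets. The cause of these shifts was not tested. No difference of a called gene changed sign in any alternative. Calls of Dhx32 held in all 17 alternatives of each contrast, that of Hnrnpm late versus before in all but 1, and those of Hnrnpul2 and Snrpg late versus early in all but 2, whereas Dhx40 lost its call in 13 of 17, Snrpn in 11 of 17, and Dhx15 in 9 of 17 for either contrast. Late versus early, Hnrnpll lost its call in 7 of 17, Prpf19 and Sf3b3 in 6 of 17 each and Snrpa in 4 of 17. Along the series, the call was lost in 10 of 19 alternatives for Hnrnpl, 7 of 19 for Dhx15, 2 for Sf3b3 and 1 each for Snrpa and Srsf6. The alternatives were run for the genes of the named families and not for the other RNA processing genes. No paired analysis was possible because each time point has 1 sample per array type. Genes near the floor have only bounds on their differences.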
